A study of Homo sapiens with 24 samples.

Results

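The genes described here are 38 transcriptional targets of ATF4, the transcription factor of the integrated stress response, measured in 2 human leukaemia lines treated with retinoic acid and arsenic. They were chosen by name as known targets, not by a threshold on these libraries, but with earlier results of these data known. All 38 were found among the 60655 genes of the count table. By role they comprised 7 transcription regulators with ATF4 itself, 7 stress effectors, 6 enzymes of serine and one-carbon metabolism, 3 enzymes of other amino acid synthesis, 6 amino acid transporters, and 9 genes for tRNA synthetases and tRNA export. NB4 is a line of acute promyelocytic leukaemia (APL), which carries the PML-RARA fusion, and HL-60 is an acute myeloid leukaemia line that the study sets against it as non-APL. Each line was given both drugs together (ATRA+ATO), all-trans retinoic acid alone (ATRA, 1.0 µM), arsenic trioxide alone (ATO, 0.8 µM) or nothing, and treated cells were exposed for 48 h, with 3 libraries in each of the 8 groups. All libraries were labelled wild type, and doses are stated for the single drugs only. ATRA drives promyelocytes toward granulocytes, and arsenic binds protein thiols and PML. Each line stands for 1 cell line only, and a whole-culture RNA measure cannot tell fewer cells expressing a gene from less of its RNA per cell.

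The integrated stress response starts when 1 of the kinases HRI (EIF2AK1), PKR (EIF2AK2), PERK (EIF2AK3) or GCN2 (EIF2AK4) phosphorylates the translation factor eIF2α. Most protein synthesis then slows, while the ATF4 messenger RNA, whose upstream reading frames normally hold it back, is translated more. ATF4 binds C/EBP-ATF response elements as a dimer with C/EBP or other leucine-zipper partners and turns on genes that import and make amino acids, charge tRNAs and adjust the response. ATF4 is thus set largely by translation, and its own messenger RNA is only 1 of its controls. Arsenic is a known activator of HRI.

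Several members carry a core of this element near their start site. The core TGATGNAA was searched on both strands, with no other motif searched, in the 250 bases before and 50 bases after each start site in the RefSeq table of GRCh38.p14. It was found in at least 1 window of 13 of the 32 members in that table (40.62%), against 1217 of 27305 genes (4.457%). The 13 were ATF3, JDP2, CEBPG, CHAC1, ASNS, SLC7A1, SLC3A2, SLC1A5, AARS1, GARS1, NARS1, CARS1 and MARS1. NUPR1, VEGFA, PSPH, SHMT2, ALDH1L2 and PYCR1 were not in the table. The stretches below are shown because they place the core in 6 members, from 5 of the roles, whose values are given in the results. They are a transcription factor (ATF3, chr1:212565157-212565283, plus strand), asparagine synthetase (ASNS, chr7:97872409-97872536, minus strand), a glutathione-degrading enzyme (CHAC1, chr15:40953221-40953329, plus strand), alanyl-tRNA synthetase (AARS1, chr16:70289626-70289753, minus strand), a C/EBP partner of ATF4 (CEBPG, chr19:33374011-33374112, plus strand) and the neutral amino acid carrier ASCT2 (SLC1A5, chr19:46784844-46784971, minus strand). Each runs 5′ to 3′ on the strand of its gene, and the capitals mark the core, which reads TTGCATCA where it lies on the opposite strand.
ATF3: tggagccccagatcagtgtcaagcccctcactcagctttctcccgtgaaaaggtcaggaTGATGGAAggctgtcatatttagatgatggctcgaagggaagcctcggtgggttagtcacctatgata
ASNS: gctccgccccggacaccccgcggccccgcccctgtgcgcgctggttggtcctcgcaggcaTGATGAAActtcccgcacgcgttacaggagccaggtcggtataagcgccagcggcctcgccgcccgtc
CHAC1: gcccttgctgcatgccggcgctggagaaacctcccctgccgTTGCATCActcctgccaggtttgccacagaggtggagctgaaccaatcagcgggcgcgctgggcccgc
AARS1: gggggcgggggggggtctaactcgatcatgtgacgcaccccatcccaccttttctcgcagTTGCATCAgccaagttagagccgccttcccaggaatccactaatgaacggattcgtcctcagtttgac
CEBPG: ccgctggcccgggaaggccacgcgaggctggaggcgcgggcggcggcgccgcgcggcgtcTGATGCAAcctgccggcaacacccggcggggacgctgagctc
SLC1A5: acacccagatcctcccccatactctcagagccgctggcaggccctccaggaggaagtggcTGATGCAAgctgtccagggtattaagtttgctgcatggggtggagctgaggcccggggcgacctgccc
The first base of the core lay at -191 in ATF3, -68 in ASNS, -209 in CHAC1, -187 in AARS1, -42 in CEBPG and -97 in SLC1A5, relative to the start site of the window that holds it. The SLC1A5 window belongs to 1 of 3 start sites listed for the gene, 3780 bases downstream of the outermost. That of CEBPG belongs to 1 of 2, 404 bases downstream. ATF3 and ASNS also have 2 listed start sites each, and their windows belong to the outermost. A match to these letters describes the promoter and does not show binding in these cells.

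The libraries held 37811652 to 57795273 counts each. Levels are given as normalised CPM (counts scaled to a fixed library size), and changes as log2 ratios with their standard error (SE) from edgeR's quasi-likelihood test. A gene was called changed where the Benjamini-Hochberg adjusted p over all genes of the comparison was below 0.05. The labels do not say that replicates were separate cultures, so the p-values measure the spread between these libraries. Myeloid genes fitted the labels in part: MPO ran from 66.6 to 9167 CPM and SPI1 from 85.4 to 323 CPM, while ELANE reached at most 0.276 CPM in NB4, against 29.4 to 206 CPM in HL-60. Of 9 markers of other lineages, 3 (MS4A1, HBB and PF4) were at 0 in all 24 libraries, and the summed level of the 9 was 152 to 161 CPM in NB4 ATRA+ATO libraries, against 31.7 to 36.8 CPM in untreated NB4 libraries. Without PECAM1, which leukocytes also express, it was 19.0 to 21.0 CPM in NB4 ATRA+ATO libraries, against 12.6 to 15.8 CPM in untreated NB4 libraries, and at most 2.82 CPM in HL-60. Their part in the results was not tested. NB4 ATRA replicate 2 and HL-60 ATRA+ATO replicate 2 stood farthest from the other libraries of their groups, and without them 27 members, against 28 with all libraries, were called in either direction for ATRA in NB4 (59.9% of all genes), and 31, against 30, for ATRA+ATO in HL-60 (60.4% of all genes). Of the members, NUPR1 and SLC6A9 did not pass the filter on low counts in NB4, nor SLC6A9 in HL-60. SLC6A9, a glycine transporter, held 12 counts in all 24 libraries and is not described further. Counting of ASNS, DDIT3, ALDH1L2 and MARS1 is uncertain. ASNS, with only 838 counts in all, shares 1985 exon bases on its own strand with AC079781.5 and has pseudogenes of similar sequence. DDIT3 shares 355 exon bases with MARS1 and 58 with MBD6 on the opposite strand. ALDH1L2 shares 145 with C12orf45, whose counts over all libraries were 119.5% of its own, and MARS1 shares 519 with ARHGAP9 (33.0% of its own), both on the opposite strand. The strand setting of the counting is not given in the sources used here.

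Before any drug, most members were lower in NB4 than in HL-60. Of 37 tested, 9 were higher in NB4, of a background of 29.1% of all genes, and 21 were lower, of a background of 34% (63.2% called in either direction). The median log2 difference was -0.37, against -0.01 over all genes. The amino acid transporters differed in the other direction: 5 of 5 tested were higher in NB4, although the call for SLC3A2 (0.14 ± 0.06, adjusted p = 0.0451) was lost with the replicate block (0.15, adjusted p = 0.0855) and without any of 13 libraries. None of the 9 tRNA genes was higher in NB4 and 6 were lower. ATF4 stood at 339, 359 and 374 CPM in untreated NB4 libraries, against 542, 569 and 518 CPM in untreated HL-60 libraries. Each NB4 library lay below each HL-60 library (-0.60 ± 0.05, adjusted p = 1.69e-11).

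NUPR1, a small chromatin-associated stress protein, gave the widest difference between the lines. It was at 0 in all 3 untreated NB4 libraries and held 10 counts over all 12 NB4 libraries, of which 10 were at 0. In untreated HL-60 it was at 83.1, 87.7 and 78.9 CPM, which is at least 1246-fold higher in HL-60, against a floor of 3 counts per NB4 library. With NUPR1 at that bound the median over the members remained -0.37. ALDH1L2, a mitochondrial folate enzyme, was at 1.01, 0.350 and 0.513 CPM in untreated NB4 libraries, against 43.5, 40.0 and 46.4 CPM in untreated HL-60 libraries (-6.11 ± 0.20, adjusted p = 2.33e-22), while its neighbour C12orf45 was higher in NB4 (0.32). STC2, a secreted glycoprotein of the stress response, was at 0.919, 0.467 and 1.39 CPM in NB4, against 24.4, 24.3 and 22.8 CPM in HL-60 (-4.66 ± 0.21, adjusted p = 1.65e-18). CHAC1 had 0, 8 and 0 counts in untreated NB4 libraries, against 2.13, 1.43 and 1.44 CPM in HL-60. Its log2 difference of -4.73 depended on 1 library, and was -9.24 without NB4 untreated replicate 2. NUPR1, ALDH1L2 and CHAC1 were near their detection limit in untreated NB4, while STC2 was low but detected there, with 40, 20 and 68 counts. All 4 genes were above that limit in untreated HL-60.

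The members higher in untreated NB4 were led by DDIT4, TRIB3, SLC38A2 and PSPH. DDIT4 (REDD1), an inhibitor of mTORC1, was at 53.9, 42.5 and 61.6 CPM in untreated NB4 libraries, against 25.3, 21.4 and 20.0 CPM in untreated HL-60 libraries (1.25 ± 0.13, adjusted p = 3.35e-10). TRIB3, a pseudokinase that restrains ATF4 and AKT, was at 72.9, 67.9 and 83.4 CPM in NB4, against 34.1, 34.9 and 27.9 CPM in HL-60 (1.21 ± 0.11, adjusted p = 6.74e-11). For both genes the lines did not overlap. SLC38A2, a sodium-coupled neutral amino acid transporter, differed by 1.14 ± 0.06 (adjusted p = 3.35e-17), and PSPH, which makes serine from phosphoserine, by 1.04 ± 0.09 (adjusted p = 1.98e-11). The log2 differences of the other members named by rule were -0.81 for DDIT3 and -1.02 for PHGDH, -0.61 for PSAT1 and -0.08 for ASNS, of which the first 3 were called lower in NB4 and ASNS was not (adjusted p = 0.866). Among the tRNA genes, NARS1 (asparaginyl-tRNA synthetase) was at 196, 193 and 176 CPM in NB4, against 613, 613 and 646 CPM in HL-60 (-1.73 ± 0.07, adjusted p = 2.29e-20). Scaled by library sizes alone, the median of all genes in this comparison moved by 0.15, so differences near 0 are the least certain here.

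Ranked by level per kilobase of exon, ATF4 itself was the first of the members in untreated HL-60 (216 CPM per kb) and the second in untreated NB4 (142 CPM per kb), where SLC1A5 was first (209 CPM per kb). NARS1 (153 CPM per kb) and EPRS1 (129 CPM per kb) followed ATF4 in HL-60. SLC7A5 (92.1 CPM per kb) and SLC38A2 (91.4 CPM per kb) followed it in NB4. Among members with any counts in the untreated libraries, the lowest were ASNS (0.144 CPM per kb) in HL-60 and CHAC1 (0.0303 CPM per kb) in NB4. NUPR1 was at 0 in untreated NB4. ASNS, which makes asparagine and is among the best known ATF4 targets, was thus barely detected in either line by these counts.

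**Figure D1:**
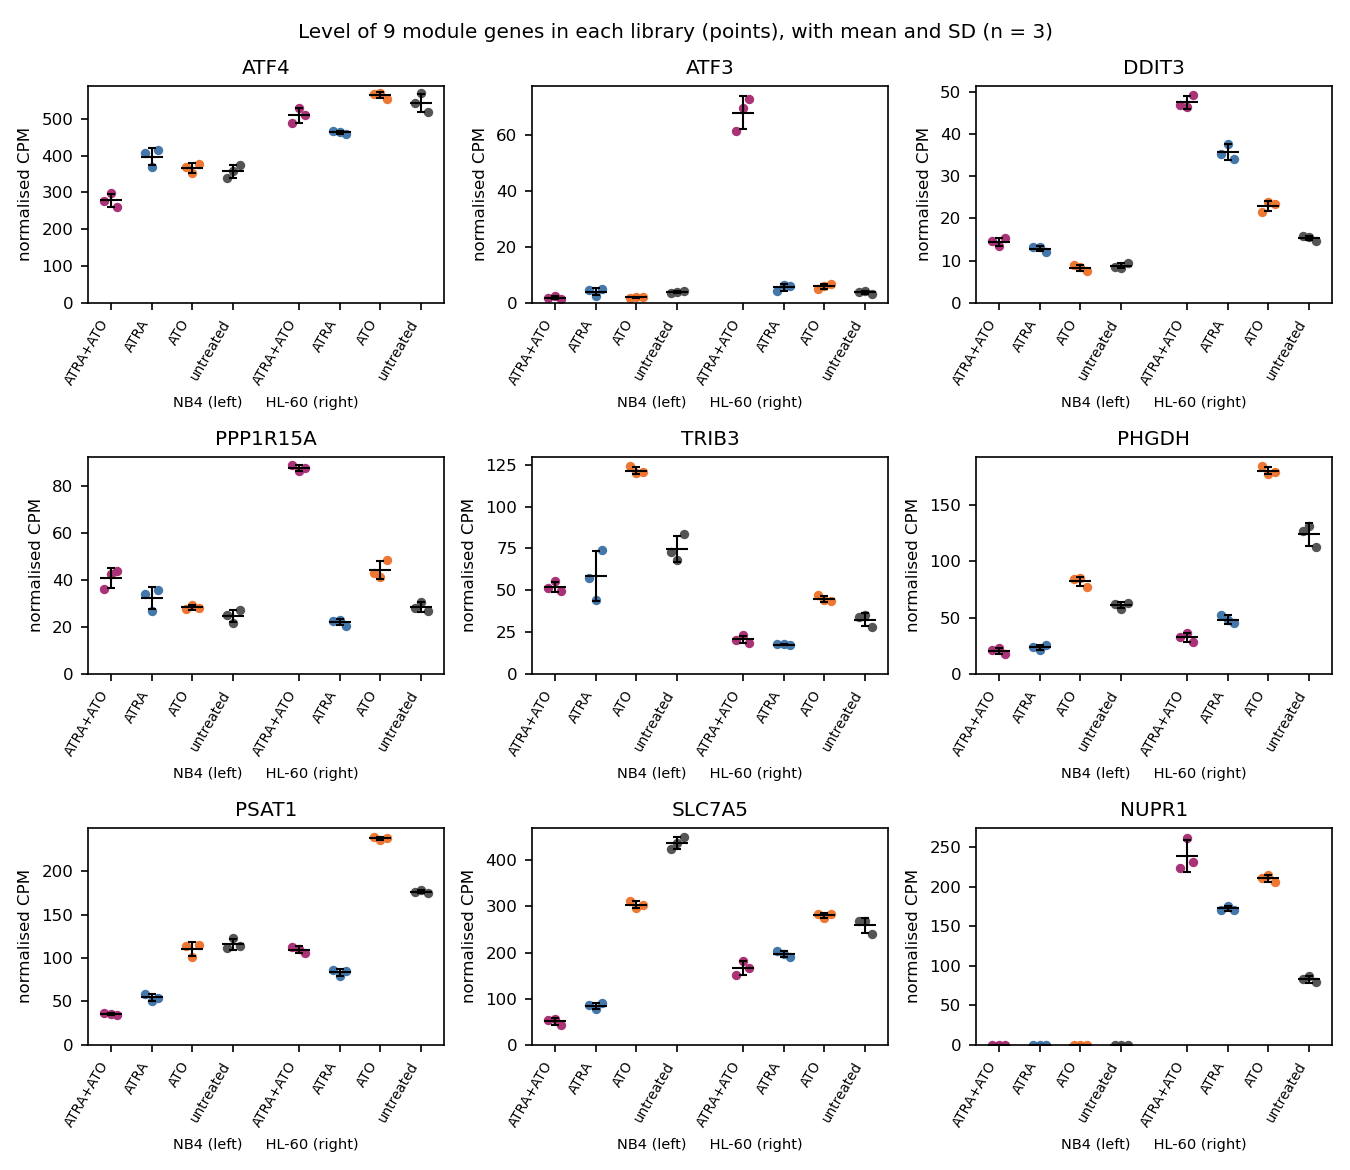
Normalised CPM (vertical axis) of 9 members in each of the 24 libraries. Points are libraries, and lines give the mean and SD of the 3 libraries of a group. ATF3 is high only in the 3 HL-60 ATRA+ATO libraries, between 61.5 and 72.9 CPM, and NUPR1 is near 0 throughout NB4.

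The messenger RNA of ATF4 changed by between -0.37 and 0.17 on the log2 scale against untreated cells in the 6 treated groups, as the plot of levels by library shows. In NB4 it was 276, 298 and 262 CPM with ATRA+ATO, 406, 370.5 and 414 CPM with ATRA, 370.0, 352 and 378 CPM with ATO and 339, 359 and 374 CPM untreated. The 3 combination libraries lay below all other NB4 libraries, and the other 3 groups overlapped. In HL-60 it was 489, 531 and 510.1 CPM with ATRA+ATO, 468, 463 and 459 CPM with ATRA, 568, 571 and 554 CPM with ATO and 542, 569 and 518 CPM untreated. The 3 ATRA libraries were the lowest of HL-60, and ATO and untreated libraries overlapped. ATF4 fell in NB4 with ATRA+ATO (-0.37 ± 0.06, adjusted p = 2.16e-05) and in HL-60 with ATRA (-0.22 ± 0.04, adjusted p = 0.000145). With ATO alone it was not called in NB4 (0.02 ± 0.06, adjusted p = 0.813) or HL-60 (0.07 ± 0.04, adjusted p = 0.25). Its rise with ATRA in NB4 (0.17 ± 0.06, adjusted p = 0.0228) was not stable: with library sizes alone it was 0.11 (adjusted p = 0.132), and leaving out any of 4 libraries, or keeping every gene with a read, also ended the call. These values say nothing of ATF4 protein, which was not measured here.

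**Figure D2:**
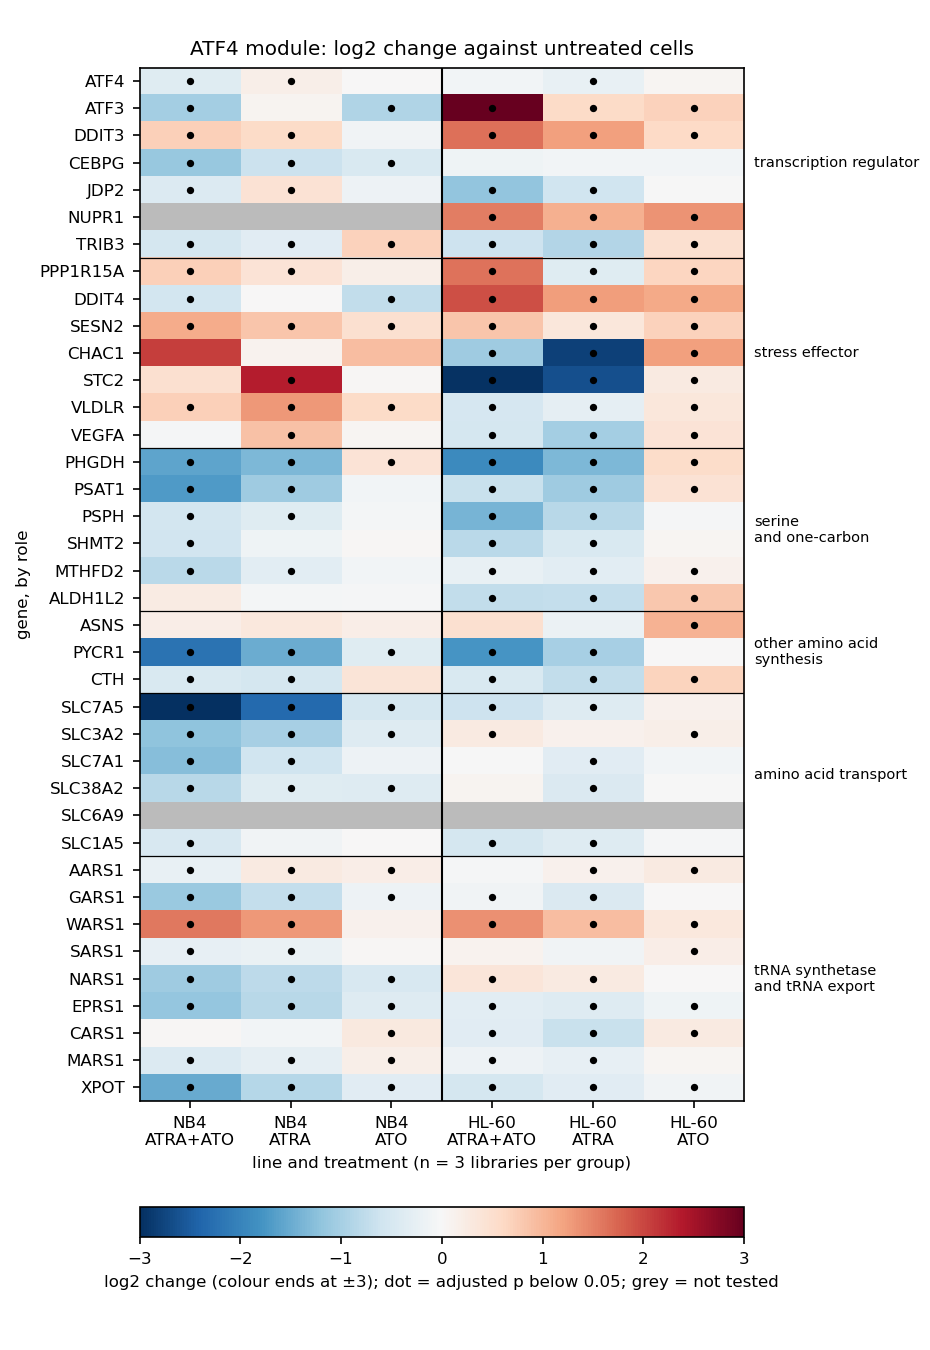
Log2 change of each of the 38 members (rows, grouped by role) under each treatment against untreated cells of the same line (columns). Colour runs from -3 to 3 on the log2 scale, dots mark an adjusted p below 0.05 and grey marks genes that did not pass the filter. The HL-60 ATO column is mostly higher, with 22 members called higher and 2 lower, while the NB4 ATRA+ATO column is mostly lower, with 25 called lower and 5 higher.

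With arsenic alone most members rose in HL-60. Of 37 members tested, 22 were called higher, of a background of 16.5% of all genes, and 2 lower, of a background of 12.1% (28.7% in either direction). The 2 were EPRS1 and XPOT, and without any 1 of the 6 libraries compared the count was 0 or 1. The median log2 change was 0.27, against 0.02 over all genes. The 7 stress effectors all rose, as did 4 of 7 transcription regulators and 4 of 6 serine and one-carbon genes, but only 1 of 5 transporters. Changes were mostly below 2-fold, and only NUPR1, CHAC1, DDIT4 and ASNS exceeded it.

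Among the regulators, NUPR1 rose most: it was at 212, 215 and 206 CPM in ATO-treated HL-60 libraries, against 83.1, 87.7 and 78.9 CPM in untreated HL-60 libraries (1.35 ± 0.06, adjusted p = 4.85e-14). ATF3, an early stress factor of the ATF family, was at 5.03, 6.14 and 6.74 CPM with ATO, against 3.70, 4.24 and 3.21 CPM untreated (0.69 ± 0.14, adjusted p = 0.000912). DDIT3 (CHOP), a pro-apoptotic C/EBP family member, was at 21.6, 23.9 and 23.5 CPM with ATO, against 15.7, 15.6 and 14.7 CPM untreated (0.60 ± 0.07, adjusted p = 1.26e-06). For all 3 genes each treated library lay above each untreated library. MBD6, which shares exon bases with DDIT3, was not called with ATO in HL-60 (0.04, adjusted p = 0.744). TRIB3 also rose (0.49 ± 0.08, adjusted p = 0.000129). ATF4, CEBPG and JDP2 were not called, with log2 changes between -0.08 and 0.07.

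Every stress effector moved the same way in HL-60 with ATO. CHAC1 was at 3.75, 3.81 and 4.01 CPM in ATO-treated libraries, against 2.13, 1.43 and 1.44 CPM in untreated libraries (1.23 ± 0.26, adjusted p = 0.000986). DDIT4 was at 47.7, 47.1 and 51.0 CPM with ATO, against 25.3, 21.4 and 20.0 CPM untreated (1.14 ± 0.09, adjusted p = 1.26e-09). PPP1R15A (GADD34), the phosphatase subunit that dephosphorylates eIF2α and ends the response, was at 43.0, 41.1 and 48.4 CPM with ATO, against 28.0, 30.6 and 26.6 CPM untreated (0.65 ± 0.07, adjusted p = 4.09e-07). In each of these genes the lowest treated library exceeded the highest untreated one. The rise of SESN2, a leucine sensor that holds back mTORC1, was 0.69 ± 0.10 (adjusted p = 1.53e-05). VEGFA, VLDLR and STC2 rose by 0.41, 0.34 and 0.27 on the log2 scale, and the call for STC2 (adjusted p = 0.0266) was lost on leaving out any of 4 libraries.

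Several genes of serine and other amino acid synthesis also rose in HL-60 with ATO. PHGDH, the first enzyme of serine synthesis, was at 185, 178 and 179.9 CPM in ATO-treated libraries, against 127, 132 and 113 CPM in untreated libraries (0.56 ± 0.07, adjusted p = 4e-06). PSAT1, the second enzyme, was at 239, 236 and 239 CPM with ATO, against 177, 178 and 175 CPM untreated (0.44 ± 0.05, adjusted p = 1.38e-07). ALDH1L2 was at 76.9, 75.6 and 73.4 CPM with ATO, against 43.5, 40.0 and 46.4 CPM untreated (0.81 ± 0.08, adjusted p = 1.15e-07), while C12orf45 fell (-0.31). The groups did not overlap for any of the 3. MTHFD2, the other of the 4, rose by only 0.12, a call lost without any of 7 libraries. PSPH, the third enzyme of the serine route, was not called (-0.04 ± 0.10, adjusted p = 0.81), nor was SHMT2 (0.06 ± 0.05, adjusted p = 0.388), which splits serine into glycine in mitochondria. CTH, which makes cysteine from cystathionine, rose (0.67 ± 0.13, adjusted p = 0.000293). PYCR1, of the same role, was not called, with a mean of 48.0 CPM in ATO-treated HL-60, against 48.4 CPM in untreated HL-60. ASNS had 57, 80 and 49 counts in ATO-treated libraries, against 25, 36 and 24 counts in untreated libraries (1.04 ± 0.35, adjusted p = 0.0306), and that call was lost without untreated replicate 1 or 3, or ATO replicate 1 or 2. AC079781.5, which shares its exon bases, changed by only 0.14 (adjusted p = 0.814).

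SLC3A2, the heavy chain of the CD98 transporter, was the 1 transporter called in HL-60 with ATO (0.18 ± 0.05, adjusted p = 0.00861), a call lost without untreated replicate 3 (adjusted p = 0.0542) or ATO replicate 2 (adjusted p = 0.0588). Its light chain SLC7A5 (LAT1), which carries leucine, was not called (0.13 ± 0.06, adjusted p = 0.0975). Of the tRNA genes AARS1, WARS1, SARS1 and CARS1 rose, by 0.20 to 0.32 on the log2 scale. The 2 members that fell were EPRS1 (glutamyl-prolyl-tRNA synthetase, -0.13 ± 0.05, adjusted p = 0.0315) and XPOT (the tRNA exporter, -0.11 ± 0.04, adjusted p = 0.0303), and both calls were lost with library sizes alone (adjusted p = 0.0657 and 0.0659) and without untreated replicate 3 (adjusted p = 0.143 and 0.0819) or ATO replicate 1 or 3.

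In NB4 the same dose of arsenic gave no common direction. Of 36 members tested, 7 were called higher, of a background of 21.2% of all genes, and 11 lower, of a background of 19.6% (40.8% in either direction). The median log2 change was -0.01, against 0.02 over all genes. Scaled by library sizes alone, the median of all genes moved by 0.107 and the share of calls that were higher over all genes moved to 69.0%, against 51.9% with the main scaling.

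TRIB3 led the rises in NB4 with ATO, at 124, 120.1 and 121 CPM in ATO-treated libraries, against 72.9, 67.9 and 83.4 CPM in untreated libraries (0.69 ± 0.12, adjusted p = 6.26e-05). PHGDH was at 84.2, 84.99 and 77.6 CPM with ATO, against 62.5, 57.9 and 63.2 CPM untreated (0.41 ± 0.09, adjusted p = 0.00079). VLDLR, a lipoprotein receptor, rose by 0.57 ± 0.09 (adjusted p = 4.55e-05) and SESN2 by 0.47 ± 0.14 (adjusted p = 0.00817). These 4 genes also rose in HL-60 with ATO, together with CARS1 and AARS1 (in NB4 a call lost without any of 3 libraries), and for TRIB3 and PHGDH treated and untreated NB4 libraries did not overlap.

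The falls in NB4 with ATO included genes that rose in HL-60. ATF3 was at 1.85, 2.04 and 2.20 CPM in ATO-treated NB4 libraries, against 3.35, 3.88 and 4.10 CPM in untreated NB4 libraries (-0.91 ± 0.22, adjusted p = 0.00247). DDIT4 was at 31.7, 33.1 and 31.3 CPM with ATO, against 53.9, 42.5 and 61.6 CPM untreated (-0.73 ± 0.13, adjusted p = 0.000116). All treated libraries of both genes lay below all untreated ones. SLC7A5 fell by 0.54 and NARS1 by 0.49 on the log2 scale, and SLC3A2 by 0.39. Of the others named by rule, DDIT3 (-0.09), PSAT1 (-0.08), ASNS (0.19) and CHAC1 (0.93) were not called, and CHAC1 held at most 14 counts in any ATO-treated or untreated NB4 library.

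The response to arsenic was therefore compared between the lines directly. Of 37 members tested, 0 responded more positively in NB4, of a background of 7.11% of all genes, and 11 more negatively, of a background of 6% (13.1% in either direction). The count of 0 comes from edgeR's quasi-likelihood test. At an unadjusted p below 0.05 it was 1 (VLDLR), and by DESeq2 it was also 0. The 11 were DDIT4, ATF3, DDIT3, SLC7A5, SLC3A2, PSAT1, NARS1, PPP1R15A, CEBPG, SLC38A2 and XPOT. The call for PPP1R15A was lost without any of 7 libraries, and that for XPOT without any of 13 and with the replicate block (-0.20, adjusted p = 0.0576). Library sizes alone also ended both calls, with PPP1R15A at -0.37 (adjusted p = 0.0528) and XPOT at -0.13 (adjusted p = 0.22). The largest differences were -1.85 ± 0.18 for DDIT4 (adjusted p = 3.31e-09) and -1.58 ± 0.26 for ATF3 (adjusted p = 6.78e-05). Both genes moved down in NB4 and up in HL-60. For PSAT1 the difference was -0.50 ± 0.08 (adjusted p = 5.09e-05), for SLC7A5 -0.64 ± 0.10 and for DDIT3 -0.66 ± 0.12 (adjusted p = 0.00017). PHGDH (-0.12 ± 0.12, adjusted p = 0.62), TRIB3 (0.23 ± 0.16, adjusted p = 0.401) and ATF4 (-0.02 ± 0.07, adjusted p = 0.954) gave no called difference. The median over the members was -0.20, against 0.02 over all genes. Of all genes called in this comparison 70.4% were more positive in NB4 with library sizes alone, against 54.2%.

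**Figure D3:**
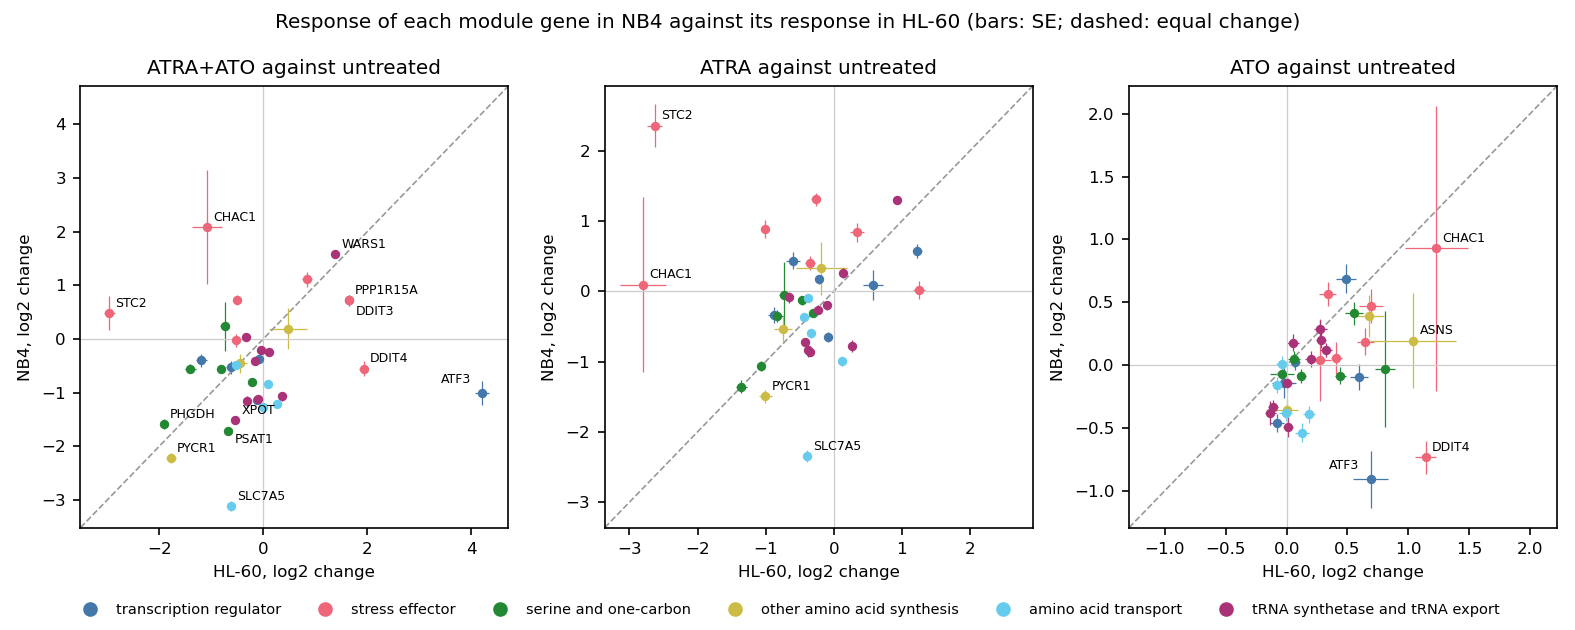
Log2 change against untreated cells in HL-60 (horizontal axis) and NB4 (vertical axis) for ATRA+ATO, ATRA and ATO. Each point is 1 member tested in both lines, with bars of 1 SE. The dashed line marks equal change. In the ATO panel ATF3 and DDIT4 lie right of 0 and below 0. In the ATRA+ATO panel ATF3 stands far to the right of the other members, at 4.21 in HL-60 and -1.01 in NB4.

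With retinoic acid more members fell than rose in both lines. In NB4, 18 of 36 members tested were called lower, of a background of 28.6% of all genes, and 10 higher, of a background of 31.3% (59.9% in either direction), with a median log2 change of -0.16, against 0.03 over all genes. In HL-60, 25 of 37 were called lower, of a background of 23.3%, and 8 higher, of a background of 25.2% (48.6% in either direction), with a median of -0.36, against 0.01. The serine and one-carbon genes went down together: 4 of 6 were called lower in NB4 and 6 of 6 in HL-60, and none was called higher. The 4 called higher in both lines were DDIT3, WARS1, AARS1 and SESN2, the last in HL-60 by a call lost without ATRA replicate 1 (0.26, adjusted p = 0.0611).

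PHGDH was at 24.3, 21.0 and 25.4 CPM in ATRA-treated NB4 libraries, against 62.5, 57.9 and 63.2 CPM in untreated NB4 libraries (-1.36 ± 0.09, adjusted p = 2.61e-11). In HL-60 it was at 52.2, 47.7 and 44.8 CPM with ATRA, against 127, 132 and 113 CPM untreated (-1.36 ± 0.08, adjusted p = 6.98e-13). The difference between the lines was -0.01 ± 0.12 (adjusted p = 0.994). PSAT1 changed by -1.07 ± 0.07 in NB4 and -1.07 ± 0.05 in HL-60, with a difference of -0.00 ± 0.08 (adjusted p = 1). PYCR1, the last enzyme of proline synthesis, fell in NB4 (-1.49 ± 0.09) and in HL-60 (-1.01 ± 0.10), and the fall was larger in NB4 (-0.50 ± 0.14, adjusted p = 0.00616). CTH, SLC7A1 (the cationic amino acid transporter CAT1), SLC38A2, GARS1 (glycyl-tRNA synthetase), EPRS1, MARS1 (methionyl-tRNA synthetase) and XPOT were also called lower in both lines, CTH in NB4 by a call lost without ATRA replicate 1 (-0.42, adjusted p = 0.0647).

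SLC7A5 separated the lines most among the transporters under ATRA. It was at 86.1, 78.3 and 91.0 CPM in ATRA-treated NB4 libraries, against 425, 437 and 449.7 CPM in untreated NB4 libraries (-2.34 ± 0.08, adjusted p = 1.91e-16). HL-60 libraries held it at 203, 196 and 189 CPM with ATRA, against 268, 269 and 241 CPM untreated (-0.39 ± 0.06, adjusted p = 3.98e-06). The groups did not overlap in either line, and the fall was larger in NB4 (-1.96 ± 0.10, adjusted p = 5.94e-16). Its partner SLC3A2 fell in NB4 (-0.995 ± 0.07) and was not called in HL-60 (0.12 ± 0.05, adjusted p = 0.0554), a difference of -1.13 ± 0.08. NARS1 fell in NB4 (-0.78 ± 0.08) and rose in HL-60 (0.26 ± 0.04).

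Several stress effectors and regulators took opposite directions in the 2 lines. STC2 was at 4.37, 3.82 and 6.03 CPM in ATRA-treated NB4 libraries, against 0.919, 0.467 and 1.39 CPM in untreated NB4 libraries (2.36 ± 0.31, adjusted p = 7.6e-07). HL-60 libraries had 3.99, 3.23 and 4.31 CPM with ATRA, against 24.4, 24.3 and 22.8 CPM untreated (-2.63 ± 0.11, adjusted p = 1.86e-15). The treated libraries of the 2 lines overlapped, while the untreated ones lay far apart. VEGFA, an angiogenic growth factor, was at 101, 90.4 and 137 CPM with ATRA in NB4, against 57.0, 55.3 and 68.6 CPM untreated (0.88 ± 0.13, adjusted p = 3.51e-06). The HL-60 values were 113, 119.7 and 119.6 CPM with ATRA, against 242, 243 and 232 CPM untreated (-1.01 ± 0.04, adjusted p = 8.66e-15). VLDLR, JDP2 (a repressor of the AP-1 family), PPP1R15A and ATF4 likewise were called higher in NB4 and lower in HL-60. The difference of response was 4.97 ± 0.28 for STC2, 1.88 ± 0.15 for VEGFA, 1.56 ± 0.12 for VLDLR and 1.03 ± 0.16 for JDP2, each called.

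DDIT3 rose with ATRA in both lines and more in HL-60. It was at 13.2, 13.2 and 12.1 CPM in ATRA-treated NB4 libraries, against 8.48, 8.32 and 9.41 CPM in untreated NB4 libraries (0.57 ± 0.10, adjusted p = 6.08e-05). In HL-60 it was at 35.2, 37.7 and 34.1 CPM with ATRA, against 15.7, 15.6 and 14.7 CPM untreated (1.23 ± 0.07, adjusted p = 1.25e-12). The difference between the lines was -0.67 ± 0.12 (adjusted p = 2.72e-05). MBD6, the neighbour on the opposite strand, also rose with ATRA, by 1.35 in NB4 and 0.67 in HL-60. TRIB3 fell in HL-60 (-0.88 ± 0.09, adjusted p = 1.93e-08) and in NB4 (-0.33 ± 0.12, adjusted p = 0.018), but the NB4 call was lost without ATRA replicate 2 (-0.18, adjusted p = 0.0817), the library that stood apart, and without untreated replicate 3 (-0.26, adjusted p = 0.086). DDIT4 (1.25 ± 0.09) and NUPR1 (1.06 ± 0.06) were 2 of the largest rises in HL-60, and CHAC1 (-2.80 ± 0.34) its largest fall. CHAC1 was not called in NB4 (0.09), nor was ASNS in NB4 (0.33) or HL-60 (-0.18).

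WARS1, tryptophanyl-tRNA synthetase, gave the largest rise of the 9 tRNA genes with ATRA in both lines. It was at 343, 348 and 333 CPM with ATRA+ATO, 282, 259 and 290.2 CPM with ATRA, 124, 124 and 127 CPM with ATO and 114, 112 and 115 CPM in untreated NB4. HL-60 cells had 358, 389.6 and 358 CPM with ATRA+ATO, 267, 277 and 271 CPM with ATRA, 182, 179 and 172 CPM with ATO and 146, 149.9 and 133 CPM untreated. ATRA libraries, with or without ATO, lay above all others in each line. WARS1 is also a known interferon target, and of 10 interferon genes listed, 10 were called higher with ATRA in NB4, of a background of 31.3% of all genes, and 7 in HL-60, of a background of 25.2%. IRF1, an interferon-responsive transcription factor, rose with ATRA+ATO by 3.37 ± 0.08 in NB4 and 2.05 ± 0.08 in HL-60. Their part in the rise of WARS1 was not tested.

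With the combination most members fell in NB4, and their median was the lowest of the 6 treatments. Of 36 members tested, 25 were called lower, of a background of 32.8% of all genes, and 5 higher, of a background of 35.4% (68.2% in either direction). The median log2 change was -0.51, against 0.05 over all genes. By role, 5 of 5 transporters, 7 of 9 tRNA genes, 5 of 6 serine and one-carbon genes and 5 of 6 regulators were called lower, while 3 of 7 stress effectors were called higher and 1 lower. The 5 that rose were WARS1, SESN2, DDIT3, PPP1R15A and VLDLR.

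The transporters had the lowest median of the roles, -1.22. SLC7A5 was at 53.6, 56.5 and 42.8 CPM in NB4 ATRA+ATO libraries, against 425, 437 and 449.7 CPM in untreated NB4 libraries (-3.11 ± 0.09, adjusted p = 1.69e-18). SLC3A2 was at 83.9, 85.1 and 74.0 CPM with ATRA+ATO, against 183, 187 and 193 CPM untreated (-1.22 ± 0.07, adjusted p = 4.05e-13). SLC7A1 was at 157, 157 and 132 CPM with ATRA+ATO, against 344, 357 and 367 CPM untreated (-1.27 ± 0.07, adjusted p = 1.02e-13). For none of these did a treated library reach an untreated one. SLC38A2 (-0.84 ± 0.06) and SLC1A5 (-0.49 ± 0.06), both carriers of glutamine among other neutral amino acids, also fell.

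Most genes of amino acid synthesis also fell in NB4 with ATRA+ATO. PYCR1 was at 15.7, 15.6 and 13.8 CPM in combination libraries, against 61.9, 70.9 and 75.9 CPM in untreated libraries (-2.22 ± 0.09, adjusted p = 3.32e-15). PSAT1 was at 36.7, 36.0 and 34.4 CPM with ATRA+ATO, against 111, 122 and 113 CPM untreated (-1.70 ± 0.07, adjusted p = 3.57e-15). PHGDH was at 21.1, 23.0 and 17.4 CPM with ATRA+ATO, against 62.5, 57.9 and 63.2 CPM untreated (-1.58 ± 0.09, adjusted p = 1.16e-12). No library of the 2 groups overlapped in any of the 3 genes. MTHFD2, the mitochondrial one-carbon dehydrogenase, fell by 0.81, and SHMT2 and PSPH by 0.56 each on the log2 scale. CTH fell by 0.46 (adjusted p = 0.0238), a call lost on leaving out any of 4 libraries and with library sizes alone (-0.38, adjusted p = 0.0608). ALDH1L2 (0.24) and ASNS (0.20) were not called.

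The tRNA genes fell in NB4 with both drugs, apart from WARS1 and CARS1 (cysteinyl-tRNA synthetase), which was not called (0.04). XPOT was at 147, 135 and 137 CPM in combination libraries, against 391, 404 and 393 CPM in untreated libraries (-1.51 ± 0.06, adjusted p = 8.58e-16). EPRS1 was at 154, 129 and 138 CPM with ATRA+ATO, against 325, 320.3 and 289 CPM untreated (-1.16 ± 0.10, adjusted p = 7.08e-10). Both were far below their untreated libraries. GARS1 and NARS1 fell by 1.11 and 1.07 on the log2 scale, and MARS1 and SARS1 (seryl-tRNA synthetase) by 0.41 and 0.25. The fall of AARS1, by 0.21, was the smallest, and its call was lost with library sizes alone (-0.13, adjusted p = 0.0724) and without untreated replicate 3 (adjusted p = 0.0635) or ATRA+ATO replicate 3 (adjusted p = 0.063).

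CEBPG fell most among the NB4 regulators, at 24.4, 25.7 and 25.2 CPM with ATRA+ATO, against 55.0, 57.9 and 52.6 CPM untreated (-1.14 ± 0.07, adjusted p = 4.56e-12). ATF3 was at 1.75, 2.36 and 1.52 CPM with ATRA+ATO, against 3.35, 3.88 and 4.10 CPM untreated (-1.01 ± 0.23, adjusted p = 0.000431). TRIB3 was at 51.3, 55.3 and 49.6 CPM with ATRA+ATO, against 72.9, 67.9 and 83.4 CPM untreated (-0.53 ± 0.12, adjusted p = 0.000412). All 3 were lower in every combination library than in any untreated one. DDIT3 went the other way, at 14.6, 13.5 and 15.3 CPM with ATRA+ATO, against 8.48, 8.32 and 9.41 CPM untreated (0.72 ± 0.10, adjusted p = 2.19e-06). MBD6, which overlaps DDIT3 on the opposite strand, rose in this comparison too (1.504 ± 0.08), and the part of shared reads in the DDIT3 value was not tested.

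PPP1R15A, SESN2 and VLDLR were the 3 effectors that rose in NB4 with both drugs. PPP1R15A was at 36.0, 42.7 and 43.9 CPM in combination libraries, against 24.99, 21.8 and 27.2 CPM in untreated libraries (0.72 ± 0.10, adjusted p = 2.41e-06). SESN2 was at 13.1, 14.7 and 13.8 CPM with ATRA+ATO, against 5.88, 5.70 and 7.55 CPM untreated (1.11 ± 0.13, adjusted p = 1.69e-07). VLDLR was at 23.9, 26.0 and 24.5 CPM with ATRA+ATO, against 15.8, 12.6 and 16.4 CPM untreated (0.72 ± 0.09, adjusted p = 4.48e-07). Groups were apart for all 3 genes. DDIT4 fell (-0.55 ± 0.13, adjusted p = 0.000787), and VEGFA (-0.03) and STC2 (0.48) were not called. CHAC1 had 10, 20 and 10 counts in combination libraries, against 0, 8 and 0 counts in untreated libraries, and was not called (2.09 ± 1.07, adjusted p = 0.0887). Without NB4 untreated replicate 2, which held all 8 untreated counts, it was called with a fitted value of 6.66, which has no stable size against libraries at 0.

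**Figure D4:**
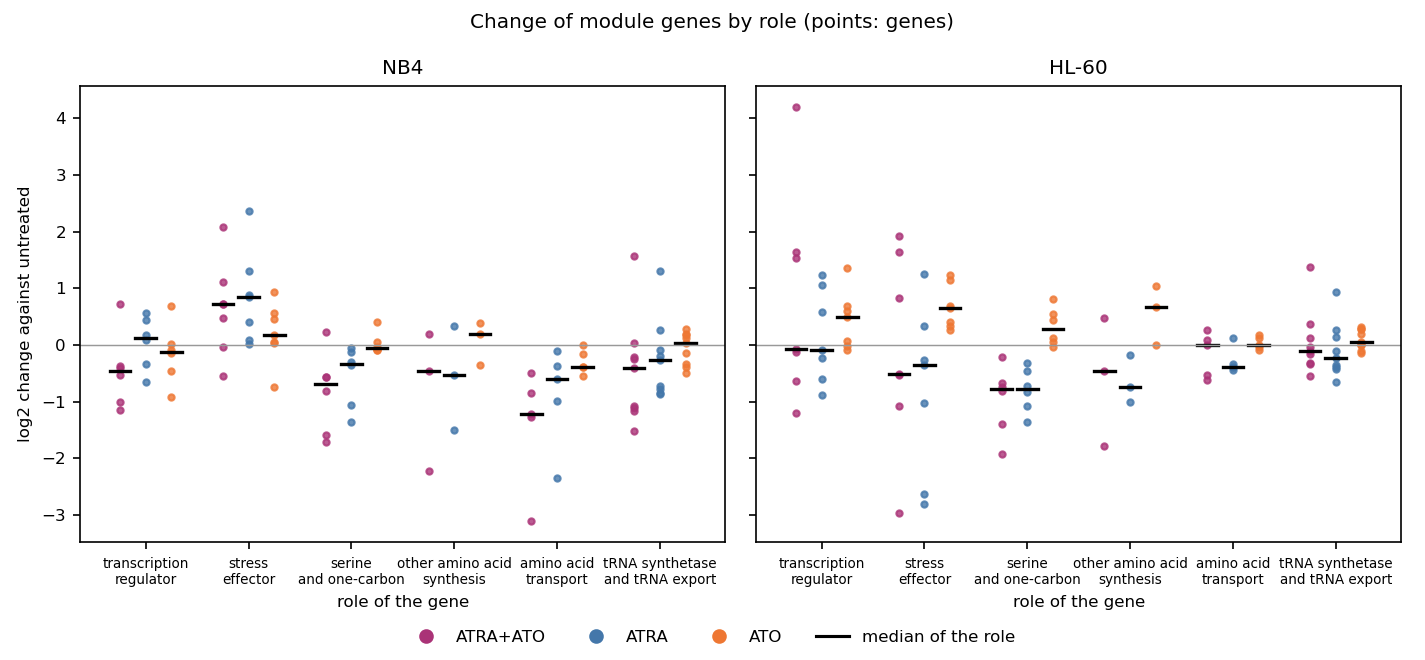
Log2 change against untreated cells (vertical axis) of each member, grouped by role, for the treatments of both lines. Points are genes and bars give the median of a role. Transporters lie below 0 for every NB4 ATRA+ATO point, with a median of -1.22, while stress effectors in HL-60 with ATO all lie above 0, with a median of 0.65.

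In HL-60 the combination gave both large rises and large falls. Of 37 members tested, 21 were called lower, of a background of 29.7% of all genes, and 9 higher, of a background of 30.7% (60.4% in either direction). The median log2 change was -0.22, against -0.00 over all genes. The serine and one-carbon genes were called lower in 6 of 6 cases, while 3 of 7 regulators and 3 of 7 effectors were called higher. The 9 that rose were ATF3, DDIT4, DDIT3, PPP1R15A, NUPR1, WARS1, SESN2, NARS1 and SLC3A2.

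ATF3 gave the largest rise of any member in any treatment. It was at 61.5, 69.8 and 72.9 CPM in HL-60 ATRA+ATO libraries, 4.22, 6.23 and 6.08 CPM with ATRA, 5.03, 6.14 and 6.74 CPM with ATO and 3.70, 4.24 and 3.21 CPM untreated. The combination libraries stood alone, far above every other HL-60 library, and the ATRA and ATO libraries overlapped. The log2 change was 4.21 ± 0.13 (adjusted p = 1.5e-17), with 0.58 ± 0.15 for ATRA alone and 0.69 ± 0.14 for ATO alone. On the log2 scale the combination exceeded the sum of the single drugs by 2.94 ± 0.19 (adjusted p = 1.46e-10). In NB4 the 3 combination libraries of ATF3 were below every untreated library, and the response differed between the lines by -5.19 ± 0.26 (adjusted p = 6.51e-17).

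PPP1R15A was also highest with both drugs. In HL-60 it was at 88.9, 86.2 and 87.7 CPM with ATRA+ATO, 22.6, 23.1 and 20.5 CPM with ATRA, 43.0, 41.1 and 48.4 CPM with ATO and 28.0, 30.6 and 26.6 CPM untreated. ATRA libraries were the lowest and combination libraries the highest, with no overlap between any 2 groups. The combination changed it by 1.64 ± 0.07 (adjusted p = 4.8e-15) and exceeded the sum of the single drugs by 1.35 ± 0.10 (adjusted p = 1.06e-09). DDIT4 was at 77.0, 90.0 and 83.9 CPM with ATRA+ATO, 53.2, 57.7 and 46.8 CPM with ATRA, 47.7, 47.1 and 51.0 CPM with ATO and 25.3, 21.4 and 20.0 CPM untreated. DDIT3 was at 46.8, 46.5 and 49.3 CPM with ATRA+ATO, 35.2, 37.7 and 34.1 CPM with ATRA, 21.6, 23.9 and 23.5 CPM with ATO and 15.7, 15.6 and 14.7 CPM untreated. Their combination changes were 1.93 ± 0.09 and 1.65 ± 0.07, and every combination library of both exceeded every other HL-60 library. For DDIT4 the combination was below the sum of the single drugs (-0.46 ± 0.12, adjusted p = 0.00423), and for DDIT3 no departure from the sum was called (-0.18 ± 0.10, adjusted p = 0.184).

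The falls in HL-60 with both drugs were led by STC2, PHGDH, PYCR1 and PSPH. STC2 was at 3.38, 2.93 and 2.81 CPM in combination libraries, against 24.4, 24.3 and 22.8 CPM in untreated libraries (-2.96 ± 0.11, adjusted p = 2.99e-16). PHGDH was at 32.7, 36.5 and 28.2 CPM with ATRA+ATO, against 127, 132 and 113 CPM untreated (-1.91 ± 0.08, adjusted p = 1.35e-15). PSAT1 was at 113, 111 and 105 CPM with ATRA+ATO, against 177, 178 and 175 CPM untreated (-0.67 ± 0.05, adjusted p = 1.79e-11). Each combination library was below each untreated library in all 3 genes. PYCR1 fell by 1.77 and PSPH by 1.40 on the log2 scale. TRIB3 fell (-0.63 ± 0.09, adjusted p = 1.79e-06), as did CHAC1 (-1.08 ± 0.29, adjusted p = 0.00291), although both rose with ATO alone. ATF4 (-0.07) and ASNS (0.48) were not called, although with library sizes alone ATF4 was called lower (-0.16, adjusted p = 0.002).

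With ATO added to ATRA most members fell in NB4 and more rose than fell in HL-60. In NB4 the combination against ATRA alone gave 22 of 36 members called lower, of a background of 21.2% of all genes, and 2 higher, of a background of 16.8% (38% in either direction), with a median of -0.40, against -0.01 over all genes. In HL-60 it gave 11 of 37 called lower, of a background of 21.9%, and 19 higher, of a background of 22% (43.9% in either direction), with a median of 0.15, against -0.01. The difference between the lines in this comparison was not tested. The 2 higher in NB4 were PPP1R15A (0.32 ± 0.10, adjusted p = 0.0191) and WARS1 (0.27 ± 0.06, adjusted p = 0.000633). PPP1R15A lost its call on leaving out any of 3 libraries, and 5 members were called higher with library sizes alone, which moved the median of all genes by 0.144 and the share of higher calls to 68.4%, against 44.3%. The furthest falls in NB4 were STC2 (-1.88), ATF3 (-1.10), VEGFA (-0.91) and JDP2 (-0.84), and ATF4 (-0.54) and PSAT1 (-0.64) also fell. DDIT3 (0.15), TRIB3 (-0.19), PHGDH (-0.23), ASNS (-0.13) and CHAC1 (1.99) were not called there. The furthest rises in HL-60 were ATF3 (3.63), PPP1R15A (2.00), CHAC1 (1.73) and DDIT4 (0.68). PSAT1 (0.40), DDIT3 (0.42) and ATF4 (0.15) rose there too, as did TRIB3 (0.25) by a call lost without any of 4 libraries and with library sizes alone (0.21, adjusted p = 0.0567). PYCR1 (-0.77), JDP2 (-0.59), PHGDH (-0.56) and PSPH (-0.56) fell furthest there.

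With ATRA added to ATO most members fell in both lines. Against ATO alone, the combination gave 23 of 36 members called lower in NB4, of a background of 28.3% of all genes, and 4 higher, of a background of 28.6% (56.9% in either direction), with a median of -0.47. The same comparison in HL-60 gave 23 of 37 called lower, of a background of 27%, and 7 higher, of a background of 27.5% (54.5% in either direction), with a median of -0.34. PHGDH fell by 2.00 in NB4 and by 2.47 in HL-60 on the log2 scale, and TRIB3 by 1.22 in NB4 and by 1.11 in HL-60. SLC7A5 fell furthest in NB4 (-2.57 ± 0.08), with PYCR1 (-1.86) and PSAT1 (-1.62) after PHGDH. STC2 fell furthest in HL-60 (-3.23 ± 0.11), with CHAC1 (-2.31), PYCR1 (-1.77) and PSAT1 (-1.11) also lower. The 4 that rose in NB4 were WARS1 (1.46), DDIT3 (0.81), SESN2 (0.64) and PPP1R15A (0.53), and the furthest rises in HL-60 were ATF3 (3.52), WARS1 (1.06), DDIT3 (1.05) and PPP1R15A (0.99). ATF4 fell by 0.39 in NB4 and by 0.14 in HL-60, the second a call lost without ATRA+ATO replicate 1 (-0.10, adjusted p = 0.069). In HL-60 the median of all genes moved by -0.101 with library sizes alone, and 39.6% of all called genes were then higher, against 50.5%.

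The interaction compares the combination with the sum of the single-drug changes on the log2 scale. In NB4, 17 of 36 members lay below that sum, of a background of 12.5% of all genes, and 0 exceeded it, of a background of 6.14% (18.7% in either direction). The 0 is by edgeR's quasi-likelihood test. It was also 0 at an unadjusted p below 0.05 and by DESeq2, and without NB4 ATRA replicate 2 it was 1 (NARS1). In HL-60, 12 of 37 lay below the sum, of a background of 18.1%, and 6 exceeded it, of a background of 14.4% (32.5% in either direction). For ATF4 the NB4 interaction was -0.56 ± 0.09 (adjusted p = 8.48e-05), and its level lay below untreated only with both drugs. STC2 (-1.92), VLDLR (-1.15), VEGFA (-0.97) and TRIB3 (-0.88) lay furthest below it in NB4. PHGDH (-0.64), PSAT1 (-0.56) and AARS1 (-0.67) were also below it there, while DDIT3 (0.24), ASNS (-0.33) and CHAC1 (1.06) were not called. In HL-60 ATF3 and PPP1R15A exceeded the sum most, followed by SLC38A2 (0.53) and SLC7A1 (0.41), and PHGDH (-1.11), NUPR1 (-0.88), ALDH1L2 (-0.83) and PYCR1 (-0.77) lay furthest below it. No departure was called there for ATF4 (0.08), TRIB3 (-0.24), PSAT1 (-0.04), ASNS (-0.38) or CHAC1 (0.50).

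Most members responded differently in the 2 lines to the combination. Of 37 members tested, 11 responded more positively in NB4, of a background of 24.9% of all genes, and 19 more negatively, of a background of 22.7% (47.5% in either direction). The median difference was -0.26, against 0.11 over all genes, and -0.27 without NUPR1. Under ATRA alone 13 responded more positively in NB4, of a background of 17.7%, and 11 more negatively, of a background of 16.8% (34.5% in either direction). After ATF3, the most negative differences with both drugs were -2.46 ± 0.10 for SLC7A5, -2.46 ± 0.18 for DDIT4 and -1.47 ± 0.08 for SLC3A2. The most positive was 3.45 ± 0.31 for STC2, and VLDLR differed by 1.26 ± 0.12. CHAC1 was called too (3.21), with a value of 7.72 without NB4 untreated replicate 2, so its size is not fixed by these data. PSAT1 (-1.01 ± 0.08, adjusted p = 9.92e-12), DDIT3 (-0.91 ± 0.12, adjusted p = 8.36e-08) and ATF4 (-0.27 ± 0.07, adjusted p = 0.00339) responded more negatively in NB4. The ATF4 call was lost with library sizes alone (-0.13, adjusted p = 0.124). PHGDH responded more positively (0.36 ± 0.13, adjusted p = 0.0199), a call lost on leaving out any of 4 libraries. TRIB3 gave no called difference (0.12 ± 0.16, adjusted p = 0.58).

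Of the 19 members that responded more negatively in NB4 to both drugs, 4 were transporters and 6 were tRNA genes. SLC7A1 was at 258, 265 and 255 CPM in HL-60 ATRA+ATO libraries, against 269, 259 and 262 CPM in untreated HL-60 libraries, and was not called (-0.01 ± 0.04), whereas it fell in NB4. SLC38A2 was likewise not called in HL-60 (0.08 ± 0.05). NARS1 was at 93.5, 85.2 and 91.6 CPM in NB4 with ATRA+ATO, against 196, 193 and 176 CPM untreated (-1.07 ± 0.08, adjusted p = 7.7e-11). HL-60 held it at 837, 763 and 783 CPM with ATRA+ATO, against 613, 613 and 646 CPM untreated (0.37 ± 0.04, adjusted p = 5.54e-08). The 2 lines moved apart, by -1.41 ± 0.09. GARS1 (-0.99 ± 0.07), XPOT (-0.95 ± 0.07) and EPRS1 (-0.82 ± 0.12) also responded more negatively in NB4.

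Calls were also counted for members with and without the core motif. With ATRA+ATO in NB4, 10 of 13 tested members with the motif were called lower and 0 higher, and of 18 without it 12 were called lower and 5 higher, of a background of 32.8% lower and 35.4% higher. The medians of the 2 sets were -0.49 with the motif and -0.49 without it. With ATO in HL-60, 6 of 13 with the motif were called higher and 0 lower, and of those without it 13 were called higher and 2 lower, of a background of 16.5% higher and 12.1% lower, with medians of 0.05 and 0.33. With ATRA+ATO in HL-60, 3 with the motif were called higher and 6 lower, and 5 without it higher and 10 lower, of a background of 30.7% and 29.7%, with medians of -0.10 and -0.27. With ATO in NB4, 3 with the motif were called higher and 5 lower, and 4 without it higher and 5 lower, of a background of 21.2% and 19.6%, with medians of -0.14 and 0.03. No difference between the sets was tested. ATF3, CHAC1 and SLC1A5 all hold the core in the stretches shown above, yet in HL-60 with ATRA+ATO ATF3 rose while CHAC1 and SLC1A5 (-0.53 ± 0.05) fell.

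The kinases upstream of ATF4 are given with other genes of eIF2 control. Of 15 listed, 2 were called higher and 9 lower in NB4 with ATRA+ATO, of a background of 35.4% higher and 32.8% lower. In HL-60, 4 were called higher and 7 lower with ATRA+ATO, of a background of 30.7% and 29.7%, and 1 higher and 6 lower with ATO, of a background of 16.5% and 12.1%. EIF2AK1 (HRI) fell slightly in HL-60 with ATRA+ATO (-0.20 ± 0.04) and with ATO (-0.14 ± 0.04). EIF2AK2 (PKR) and EIF2AK3 (PERK) rose in HL-60 with ATRA+ATO, by 0.36 ± 0.06 and 0.34 ± 0.08, and EIF2AK4 (GCN2) fell in NB4 with ATRA+ATO (-0.26 ± 0.06). The lowest value of the 15 in NB4 with ATRA+ATO was that of EIF2B3, a subunit of the exchange factor that phosphorylated eIF2 blocks. It was at 11.8, 10.9 and 11.8 CPM in NB4 ATRA+ATO libraries, against 39.8, 34.8 and 34.8 CPM in untreated NB4 libraries (-1.67 ± 0.10, adjusted p = 1.9e-12). Messenger RNA levels do not show kinase activity.

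Other genes known to respond to ATF4 gave mixed results. Of 18 listed, 16 were tested in each line: with ATRA+ATO 4 were called higher and 10 lower in NB4, of a background of 35.4% and 32.8%, and 6 higher and 7 lower in HL-60, of a background of 30.7% and 29.7%. GDF15, a stress-induced hormone, was at 144, 155 and 152 CPM in HL-60 ATRA+ATO libraries, 10.3, 9.35 and 9.09 CPM with ATRA, 0.971, 1.30 and 1.18 CPM with ATO and 0.329, 0.241 and 0.0718 CPM untreated. In HL-60 it was, like ATF3, far higher with both drugs than with either, and its values in NB4 are not given here. Over the 16 tested, log2 changes with ATRA+ATO ran from -2.72 to 9.52 in NB4 and from -2.60 to 9.45 in HL-60. CEBPB, a C/EBP factor that also rises in granulocyte differentiation, was at 115, 129 and 127 CPM in NB4 ATRA+ATO libraries, against 7.83, 6.73 and 7.22 CPM untreated (4.08 ± 0.10), and MTHFD1L, a mitochondrial folate enzyme, fell there (-2.23 ± 0.08). Of 8 other cytosolic tRNA synthetases, which are not among the 38, 7 were called lower and 1 higher in NB4 with ATRA+ATO, of a background of 32.8% and 35.4%, and FARSB was lowest (-2.01 ± 0.08).

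Most listed chaperones of the endoplasmic reticulum fell with arsenic in both lines, and most also fell with ATRA alone. Of 10 listed, 9 were called lower and 0 higher in NB4 with ATO, of a background of 19.6% and 21.2%, and 7 lower and 0 higher in HL-60 with ATO, of a background of 12.1% and 16.5%. With ATRA alone 8 were called lower and 1 higher in NB4, of a background of 28.6% and 31.3%. In HL-60 the ATRA counts were 6 lower and 1 higher, of a background of 23.3% and 25.2%. ATRA+ATO gave 9 lower and 0 higher in NB4, of a background of 32.8% and 35.4%. It gave 7 lower and 3 higher in HL-60, of a background of 29.7% and 30.7%. HSPA5 (BiP), the main such chaperone, fell in HL-60 (-0.58 ± 0.04, adjusted p = 1.08e-10) and in NB4 (-0.97 ± 0.06, adjusted p = 2.92e-11). CALR (calreticulin) was at 1134, 1141 and 996 CPM in NB4 ATRA+ATO libraries, against 5513, 5649.9 and 5857 CPM untreated (-2.39 ± 0.06). HMOX1 (haem oxygenase 1) responds to arsenic through the oxidative stress factor NRF2. It rose with ATO by 5.64 ± 0.24 in NB4 and 6.33 ± 0.12 in HL-60, so both lines showed a response to arsenic at this gene. With ATRA alone HMOX1 also rose, by 2.52 in NB4 and 3.01 in HL-60. With ATRA+ATO it rose by 6.57 in NB4 and 9.90 in HL-60, and that response differed between the lines (-3.31, called). MYC, which also drives amino acid transport and synthesis genes, fell with ATRA+ATO in NB4 (-2.32 ± 0.07) and in HL-60 (-1.38 ± 0.05), and its part in the changes of the module was not tested.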

How the data were processed

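Whole-culture RNA of 24 libraries (2 lines, 4 treatments, 3 replicates each) was selected with oligo(dT), and the labels' protocols name an Illumina TruSeq kit and paired-end sequencing. The deposited table holds gene counts; the submitters' processing notes name fastp, HISAT2, featureCounts, DESeq2 and GRCh38. Their versions, the annotation release and the strand setting are not stated. Even numbers made up 74.4% of counts from 1 to 9, against 51.5% of counts of 500 or more, so halved counts were tried.

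Counts were fitted with edgeR 4.0.16 (R 4.3.3), after filterByExpr and TMM scaling, by quasi-likelihood tests over the 12 libraries of a line (8 residual degrees of freedom) or all 24 (16) for comparisons between lines. Genes tested numbered 16370 in NB4, 15895 in HL-60 and 17930 in both, in 16 comparisons, with Benjamini-Hochberg adjustment over all genes of each. SE is the log2 change divided by the square root of F. CPM were scaled by TMM over all 24 libraries. Variation between replicates beyond counting error (edgeR's common BCV) came to 8.78% for NB4, 7.0% for HL-60 and 7.98% for the fit of both. The code was tested on simulated data.

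Groups came from the treatment and line labels. A batch label equal to the replicate number pairs libraries across groups; residuals of same-numbered libraries correlated between -0.0812 and 0.0383 in NB4 and between -0.00807 and 0.0589 in HL-60. Batch was not in the model and was added as a replicate block.

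The members and lists were chosen with earlier results of these data known. The text names, in each comparison, the 4 largest called rises and falls with a group mean of at least 1 CPM, and always ATF4, DDIT3, ASNS, CHAC1, TRIB3, PSAT1 and PHGDH. For the other lists it names from the 2 members with the smallest p and fixed genes. Promoter windows came from a RefSeq table, and exon lengths and overlaps from GENCODE 29. Alternatives were scaling (DESeq2 size factors, library sizes alone), the low-count filter, DESeq2 1.42.0, the groups fitted, the block, halved counts and leaving out each library. Numbers of counts cover sampling of reads, not molecules. A listed lineage marker is not reported here.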

Additional observations from a re-analysis of the deposited data

Results flagged for a closer look

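The lines were set against each other by an interaction term in the fit of all 24 libraries, as the response of NB4 minus that of HL-60 on the log2 scale, with adjusted p below 0.05 in each case given. The 37 members tested include NUPR1, which was near 0 throughout NB4 and was called in none of these comparisons. With ATRA, 24 of 37 members tested differed, of a background of 34.5% of all genes. STC2 (4.97), VEGFA (1.88), VLDLR (1.56), JDP2 (1.03), TRIB3 (0.53) and ATF4 (0.38) responded more positively in NB4. SLC7A5 (-1.96), DDIT4 (-1.25), SLC3A2 (-1.13), NARS1 (-1.05) and DDIT3 (-0.67) responded more negatively. STC2 was near 1 CPM in untreated NB4, and ATF4 rose in NB4 only by an unstable call.

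With ATO, 11 of 37 members tested differed, of a background of 13.1% of all genes. All 11 responded more negatively in NB4, of a background of 6%, among them DDIT4 (-1.85), ATF3 (-1.58), DDIT3 (-0.66), SLC7A5 (-0.64) and PSAT1 (-0.50). DDIT4 and ATF3 were called in opposite directions in the 2 lines.

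With ATRA+ATO, 30 of 37 members tested differed, of a background of 47.5% of all genes. STC2 (3.45), CHAC1 (3.21), VLDLR (1.26), ALDH1L2 (1.02) and PHGDH (0.36) responded more positively in NB4. ATF3 (-5.19), SLC7A5 (-2.46), DDIT4 (-2.46), SLC3A2 (-1.47), PSAT1 (-1.01), DDIT3 (-0.91) and ATF4 (-0.27) responded more negatively. CHAC1 and ALDH1L2 were near their detection limit in NB4, and the ALDH1L2 call was lost without NB4 untreated replicate 2 (0.75, adjusted p = 0.0702) or ATRA+ATO replicate 2 (0.83, adjusted p = 0.0763). Single outlying libraries were not tested in these groups of 3, and no column of the table was left unused.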

How the results depend on the processing

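No count of members called in either direction moved by more than 1.5 times under any alternative. By direction, 3 small counts did. For ATRA+ATO against ATRA in NB4 the count called higher, 2, was 5 with library sizes alone and 1 without ATRA replicate 2 or ATRA+ATO replicate 2 or 3. For ATO in HL-60 the count called lower, 2, was 0 with library sizes alone, 1 with every gene with a read and 0 or 1 without any 1 of the 6 libraries compared. For the NB4 interaction the count above the sum, 0, was 1 without ATRA replicate 2. Leaving out 1 library at a time, the counts against untreated cells ran from 29 to 31 for ATRA+ATO, 27 to 29 for ATRA and 15 to 20 for ATO in NB4, and from 29 to 31, 32 to 34 and 18 to 25 in HL-60. They ran from 21 to 25 (NB4) and 26 to 30 (HL-60) for the combination against ATRA, from 26 to 28 and 29 to 30 against ATO, and from 14 to 19 and 17 to 20 for the interaction. For NB4 minus HL-60 they ran from 23 to 25 with ATRA, 9 to 13 with ATO and 28 to 31 with both, and from 29 to 33 untreated. Of 586 member changes, 404 were called, where the share of all genes called ran from 13.1% to 68.2% by comparison. Leaving out at least 1 library ended 44 of these calls. Another setting ended the call or reversed the sign of 31 member changes, with library sizes alone the most frequent (22 lost). Of the 31, GARS1 alone reversed, and it is not among the 404 calls. Untreated NB4 against HL-60, its difference of -0.02 was not called, and with library sizes alone it was 0.13 (adjusted p = 0.0149). The replicate block ended the calls of GARS1 for ATO in NB4 (-0.14, adjusted p = 0.0668), PYCR1 for the NB4 interaction (-0.37, adjusted p = 0.0666), XPOT for the ATO difference between lines (-0.20, adjusted p = 0.0576) and JDP2 (-0.23, adjusted p = 0.168) and SLC3A2 (0.15, adjusted p = 0.0855) between untreated lines. It added calls for SARS1 with ATRA+ATO (0.12, adjusted p = 0.0493) and SLC3A2 with ATRA (0.12, adjusted p = 0.0297) in HL-60, and changed no other member's call. Low counts limit the values of CHAC1, ALDH1L2 and NUPR1 in NB4 and of ASNS in both lines. The causes were not tested.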

Other observations

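The median of the members, each centred over the 8 group means of log2 CPM, was -0.67 in NB4 with ATRA+ATO, -0.28 with ATRA, -0.07 with ATO and -0.09 untreated. In HL-60 it was 0.17 with ATRA+ATO, -0.01 with ATRA, 0.45 with ATO and 0.37 untreated.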
